A study of Ovis aries with 40 samples.

Results

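The genes described here are 5 members of the interferon-gamma response, GBP2, GBP4, CXCL10, IRF1 and PSMB8, which 6 of the 15008 probes on a sheep array measured in the longissimus dorsi, the long muscle of the back. They were chosen by their measured intensities on these same arrays over the 13 groups of breed and stage, so their levels and differences are a description. Where a fit across all probes is cited, the number of member probes it called is given beside the share of all probes, and nothing about the members is read from it. IRF1, CXCL10 and PSMB8 are named in the array annotation, whereas the names of GBP2 (2 probes) and GBP4 come from the study's own list of probes at 120 d, where the array gives only an expressed sequence tag.

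The groups were Texel fetuses at 5 stages of gestation, from 70 and 85 d through 100 and 120 d to 135 d (T70 to T135), Ujumqin fetuses at the same stages (U70 to U135), and Ujumqin lambs at birth (Ubirth) and at 1 and 2 months (U1mo, U2mo). Each group held 3 animals, except T100 with 4, and each of the 40 animals had its own array. Texel is a heavily muscled breed, which the study took as a natural model of a myostatin mutation, and Ujumqin is an indigenous Chinese breed without it. The labels name no treatment. No Texel animal was sampled after birth, and with 3 ewes per breed at each stage in the methods, a dam may have carried more than 1 of the 4 T100 fetuses.

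Interferon-gamma is secreted mainly by T and NK cells. Signalling from its receptor switches on the transcription factor IRF1, which helps to induce a second set of genes. Among these are CXCL10, a chemokine that draws in T cells bearing CXCR3; the guanylate-binding proteins GBP2 and GBP4, GTPases that act against microbes inside cells; and PSMB8, a catalytic subunit of the immunoproteasome, which cuts peptides for MHC class I. Muscle cells themselves can respond to interferon-gamma, and they show little MHC class I at rest.

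All 6 probes are 60 bases long. The sequences of the GBP2, IRF1 and PSMB8 probes are shown, as printed on the array and 5′ to 3′, because the largest differences rest on the pair of GBP2 probes and because the GBP2 name does not come from the array.
GBP2, probe P066386: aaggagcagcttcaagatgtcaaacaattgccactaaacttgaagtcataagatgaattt
GBP2, probe P066921: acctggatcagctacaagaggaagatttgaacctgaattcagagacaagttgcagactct
IRF1: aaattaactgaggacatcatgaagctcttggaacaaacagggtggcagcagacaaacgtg
PSMB8: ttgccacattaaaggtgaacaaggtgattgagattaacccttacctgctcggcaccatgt
The member probes shared no run of over 7 bases with each other, so the pair of GBP2 probes measured different stretches. The pair comes from different expressed sequence tags, and whether both belong to the same gene was not tested. The G and C content of the member probes ran from 35% to 45%. In a search for runs of 15 bases in the same orientation, the GBP4 probe shared one with 1 other probe on the array, and the other 5 member probes shared none.

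Levels are log2 intensities after quantile normalization of the 40 arrays, and a spot counts as measured where Feature Extraction, the scanner software, marked it well above background. The median processed signal of an array lay between 217.6 and 708.3, no spot was saturated, and from 79.3% to 90.9% of the spots of an array were well above background. The arrays lay on 5 slides of 8. T120 fetus 1 was on slide 3, while T120 fetuses 2 and 3 shared slide 4 with the 3 U120 fetuses. The muscle genes TNNC2 and MYOD1 were well above background on all 40 arrays. GBP2 probe P066386, CXCL10, IRF1 and PSMB8 were also measured in all 40 animals, GBP2 probe P066921 in 31 and GBP4 in 10. Whole muscle was measured, so more responding cells and more RNA per cell cannot be told apart.

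The mean of each of the 6 probes was highest in T120. IRF1 went from 5.07, 5.06 and 5.49 in T70 to 7.27, 9.91 and 8.88 in T120 and stood at 6.97, 6.69 and 7.58 in T135. In Ujumqin fetuses it went from 5.04, 4.67 and 5.02 in U70 to 6.98, 7.09 and 6.88 in U120. The lowest T120 fetus was thus just above the highest U120 fetus, and the T120 mean of 8.69 ± 1.33 (SD, n = 3) rested mainly on fetuses 2 and 3. After birth IRF1 read 6.88, 6.32 and 6.29 in Ubirth, 7.58, 7.02 and 6.55 in U1mo, and 8.78, 6.90 and 8.21 in U2mo, which had the second highest mean, 7.96 ± 0.96 (SD, n = 3).

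**Figure D1:**
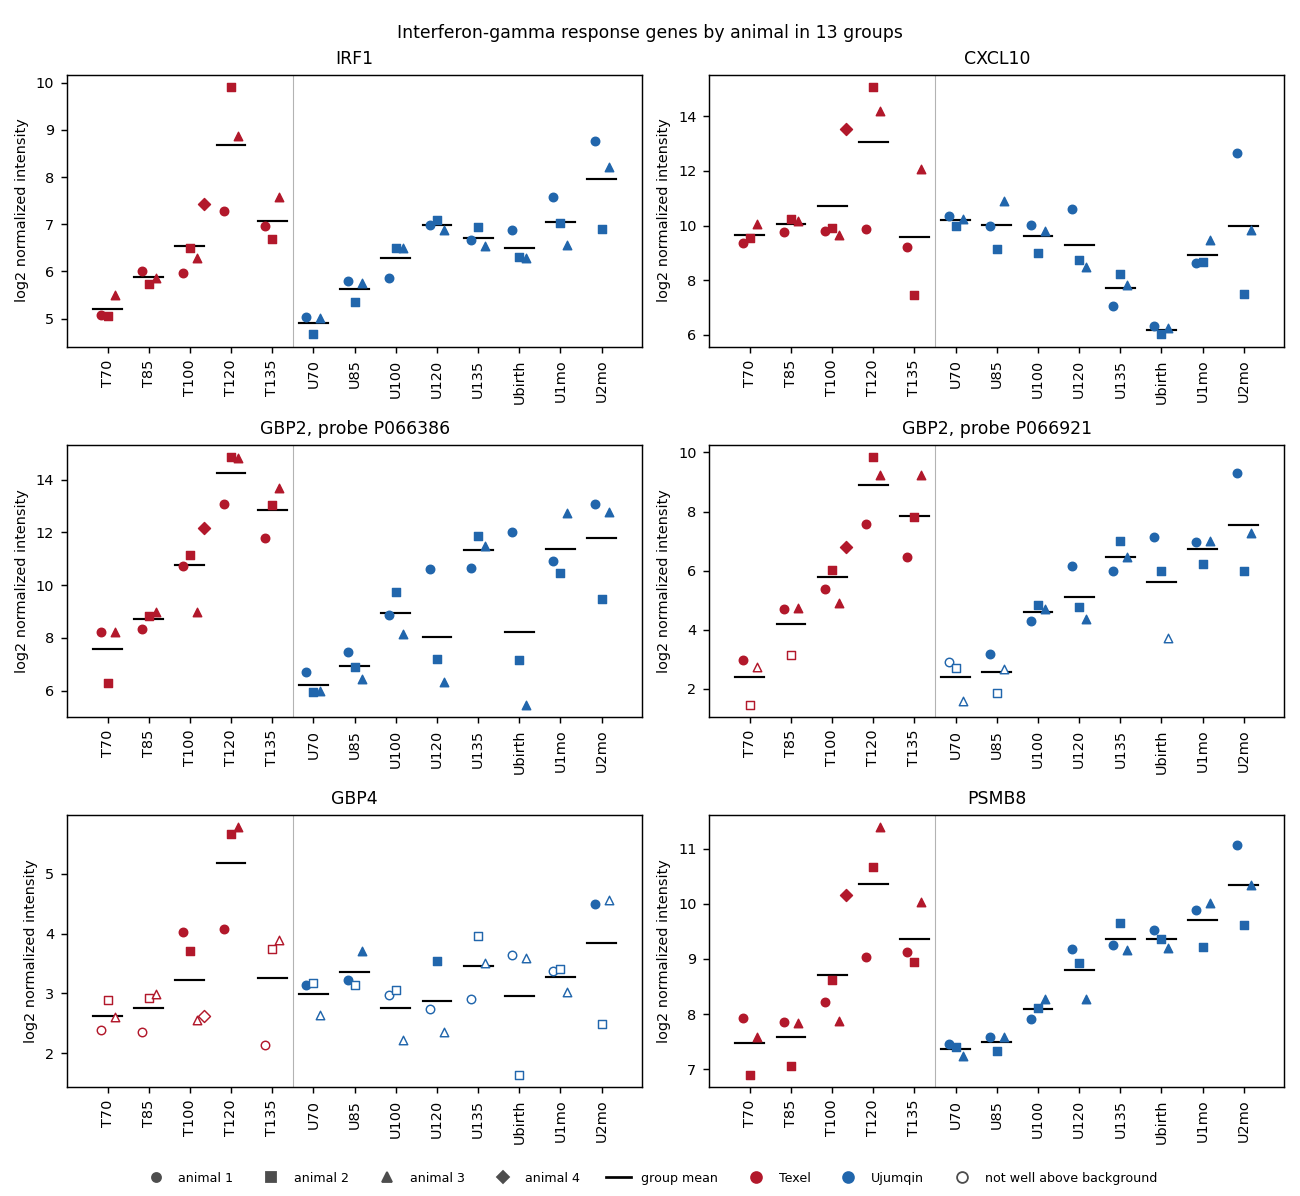
Level of each member probe in each of the 40 animals (log2 normalized intensity, 13 groups of breed and stage; black bars are group means, open symbols are spots not well above background). All 6 means are highest in T120, where animal 1 is the lowest of its group on every probe, and T100 animal 4, T135 animal 3 and U2mo animal 1 stand above their groups on CXCL10.

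CXCL10 ran differently from IRF1. Between 70 and 100 d it lay from 9.01 to 10.92 in 18 of 19 fetuses of both breeds, and the exception was T100 fetus 4 at 13.54, against 9.80, 9.90 and 9.65 in the other T100 fetuses. In T120 the level was 9.89, 15.08 and 14.19, and in U120 it was 10.59, 8.75 and 8.49. The groups overlapped, because T120 fetus 1 was below U120 fetus 1. In Ujumqin animals the chemokine then read 7.06, 8.21 and 7.82 in U135 and 6.31, 6.01 and 6.23 in Ubirth, the lowest and tightest group of all, with a mean of 6.18 ± 0.16 (SD, n = 3). It was back at 8.64, 8.65 and 9.45 in U1mo, and U2mo was spread widely at 12.65, 7.48 and 9.83.

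GBP2 covered the largest range of the 5 genes. On probe P066386 its group means spanned 8.05 on the log2 scale, from 6.21 ± 0.44 in U70 to 14.26 ± 1.02 in T120 (SD, n = 3 each). The T120 fetuses read 13.08, 14.86 and 14.84, and the U120 fetuses 10.61, 7.22 and 6.31. Probe P066921 gave 7.58, 9.84 and 9.25 in T120 against 6.17, 4.77 and 4.36 in U120. No U120 fetus reached the lowest T120 fetus on either probe, and on both the U120 order was fetus 1, then 2, then 3. Across the 13 group means the pair of probes had a Pearson correlation of 0.94, a description of probes that share the same arrays.

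At 85 d, GBP2 was furthest apart, higher in Texel by 1.79 and 1.64 on the log2 scale. The others lay between -0.60 and 0.24, with CXCL10 at 0.05 and PSMB8 at 0.08. T85 read 8.36, 8.83 and 8.99 and U85 7.46, 6.91 and 6.44 on probe P066386, with no overlap. Of all probes, 10.8% had every T85 fetus above every U85 fetus. On probe P066921, T85 read 4.72, 3.16 and 4.72 and U85 3.17, 1.84 and 2.66, but 1 of the T85 and 2 of the U85 spots were not well above background. At 100 d, probe P066386 read 10.72, 11.15, 8.97 and 12.16 in T100 and 8.88, 9.76 and 8.14 in U100. The groups overlapped through T100 fetus 3, and the highest value was that of fetus 4, the fetus with high CXCL10. At 135 d the difference was smaller than at 120 d, at 11.79, 13.03 and 13.70 against 10.64, 11.87 and 11.48 on probe P066386, and the groups overlapped.

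GBP4 was dim. It was well above background in all 3 T120 fetuses, at 4.07, 5.67 and 5.78, and in 1 of the 3 U120 fetuses, whose spots read 2.73, 3.54 and 2.35. No other group had it well above background in every animal, and 7 of the 13 groups had it in none. Its order among those groups is therefore not given.

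PSMB8 was higher in the later fetal groups of both breeds, which also lay on later slides. It read 7.92, 6.90 and 7.58 in T70 and 7.46, 7.40 and 7.24 in U70, and 9.04, 10.68 and 11.39 in T120 and 9.18, 8.93 and 8.27 in U120. T120 fetus 1 lay below U120 fetus 1, so the groups overlapped at 120 d as they did for CXCL10. In contrast to CXCL10, PSMB8 had no lower mean at birth than in U135: it read 9.25, 9.64 and 9.17 in U135 and 9.52, 9.36 and 9.19 in Ubirth, and went on to 11.07, 9.61 and 10.34 in U2mo. The means of T120 and U2mo were 10.37 and 10.34, and U2mo became the higher when either T120 fetus 2 or 3, or U2mo lamb 2, was left out. These 3 of the 40 single omissions took 1 of the 6 probes out of T120.

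Most neighbors in the order of group means did not differ beyond their spread. Of the 12 steps from the highest to the lowest mean, the gap was smaller than the larger of the neighboring SDs in 9 for GBP2 probe P066386, 11 for probe P066921, 10 for CXCL10, 8 for IRF1 and 10 for PSMB8. The group means of IRF1 and PSMB8 had a correlation of 0.93, and those of CXCL10 and PSMB8 0.01, over 13 groups measured on the same arrays.

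**Figure D2:**
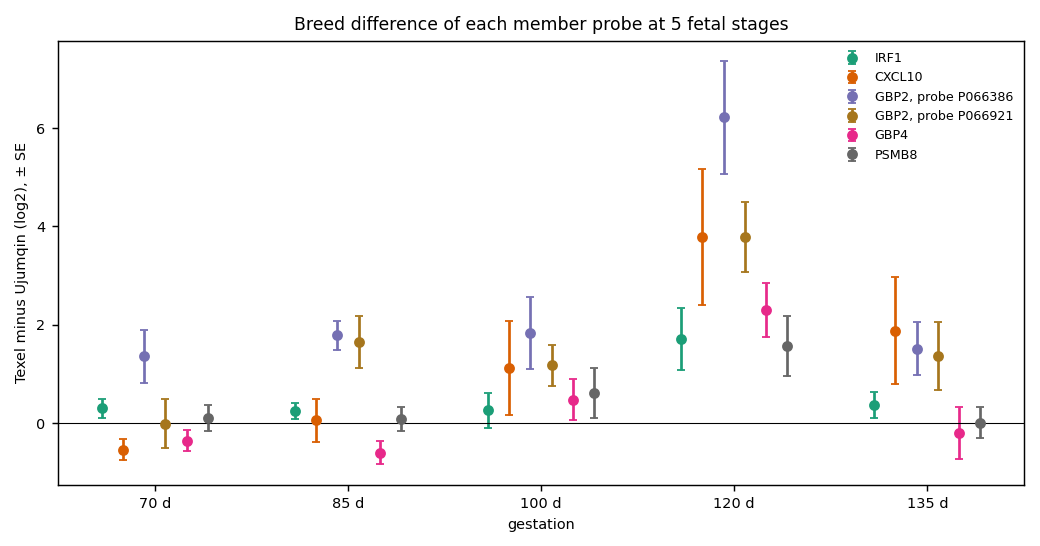
Texel minus Ujumqin for each member probe (log2 difference of group means; bars are ± SE from the limma fit at that stage) at 5 fetal stages. At 120 d all 6 points lie between 1.57 and 6.22, and at 70 d they lie between -0.54 and 1.35.

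The breeds were furthest apart at 120 d. There the Texel mean was higher by 6.22 ± 1.15 (SE) for GBP2 probe P066386, which is 74.3-fold, and by 3.79 ± 0.71 for probe P066921, which is 13.8-fold. CXCL10 was higher by 3.78 ± 1.39 (13.7-fold), IRF1 by 1.70 ± 0.63 (3.26-fold) and PSMB8 by 1.57 ± 0.61 (2.98-fold), each from 3 animals a breed. For GBP4 the difference of the spot values was 2.30, but only 1 of the 3 U120 spots was well above background, so its size is not established. Every T120 fetus was above every U120 fetus on 4 of the 6 probes, against 5.73% of all probes. None of the 6 member probes passed an adjusted p under 0.05 with a 2-fold difference in limma, against 0.0345% of all probes. The GBP4 difference was 0.27 with normexp background correction and 1.17 with a floor of 16, and that of GBP2 probe P066921 was 1.81 with normexp. When single fetuses were left out, the difference went from 2.76 (without T120 fetus 2) to 5.36 for CXCL10, from 1.09 (without T120 fetus 2) to 2.41 for IRF1 and from 1.06 (without T120 fetus 3) to 2.24 for PSMB8, each highest without T120 fetus 1.

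At the other stages the differences were smaller and less even. The median over the 6 probes was 3.04 at 120 d, but 0.04 and 0.16 at the first stages, 70 and 85 d, and 0.87 both at 100 d and at 135 d. Over all probes the medians ran from -0.05 at 120 d to 0.01 at 70 d. No member probe was called at 70, 85, 100 or 135 d, where 0.117%, 0.0207%, 0.0138% and 0.0207% of all probes were, nor for a breed difference that changed over the 5 stages, where 0.207% were.

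The slide was measured alongside. Within slide 4, which held T120 fetuses 2 and 3 and the 3 U120 fetuses, the differences were larger: 6.81 and 4.44 for GBP2, 5.36 for CXCL10, 2.85 for GBP4, 2.41 for IRF1 and 2.24 for PSMB8. None of the 6 member probes was called within slide 4, against 1.06% of all probes. Leaving out T120 fetus 1 leaves the same 5 arrays, so the part of the slide and that of this fetus cannot be told apart. At 135 d, slide 5 alone, with 2 Texel and 3 Ujumqin fetuses, gave 2.03 and 2.06 for GBP2, 2.06 for CXCL10, 0.42 for IRF1 and 0.13 for PSMB8. At 100 d, slide 3 alone, with 3 Texel fetuses and 1 Ujumqin fetus, gave 1.88 and 1.62 for GBP2, 1.01 for CXCL10, 0.87 for IRF1 and 0.97 for PSMB8. At 85 d, slide 2 alone held 1 Texel and 3 Ujumqin fetuses and gave 2.05 and 2.16 for GBP2, with 0.17 for CXCL10, 0.22 for IRF1 and 0.33 for PSMB8. GBP4, mostly not well above background in these groups, differed by -0.37 at 85 d, -0.0041 at 100 d and 0.36 at 135 d within these slides. No slide held both breeds at 70 d, and there the parts of breed and of slide cannot be told apart. Among the fetuses, later stages lay on later slides, with T70 on slide 1 and T135 on slides 4 and 5. U70 and U85 lay on slide 2 and U135 on slide 5. From the earliest to the latest fetal stages the parts of stage and of slide thus cannot be told apart. In Ujumqin, all U135 and U2mo arrays lay on slide 5, all Ubirth arrays on slide 1 and all U1mo arrays on slide 3. At each step from U135 to U2mo the parts of age and of slide thus cannot be told apart.

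By the labels the 3 T120 fetuses were male and the 3 U120 fetuses female, so sex and breed cannot be told apart within 120 d. T135 fetuses 1 and 3 were male, while the U135 fetuses and the U2mo lambs were all female. With sex as a term in 1 fit over the 13 groups, the 120 d differences were 6.93 and 4.35 for GBP2, 3.54 for CXCL10, 2.37 for GBP4, 1.92 for IRF1 and 1.75 for PSMB8. In that fit the male minus female difference was between -0.72 and 0.24 for the 6 probes, with none called, against 0.0415% of all probes. This sex difference came from the groups that held both sexes and was taken to be equal at 120 d.

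High levels of the members came together in single animals. T120 fetus 1 was the lowest of its group on all 6 probes. T100 fetus 4, T135 fetus 3, U135 fetus 2, Ubirth lamb 1 and U2mo lamb 1 were each the highest of their group on the 5 probes other than GBP4. T120 fetuses 2 and 3 and U2mo lamb 1 were among the 5 highest of the 40 animals on every one of the 6 probes. No other animal was among these 5 on more than 3 probes.

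The ligand itself was on the array with 2 probes, which behaved differently. Probe P039611 for IFNG was well above background in 8 of the 40 animals. It read 1.73, 6.37 and 6.17 in T120, 1.71, 1.54, 1.59 and 5.14 in T100, 5.99, 2.29 and 6.57 in T135, 1.71, 3.77 and 4.84 in U120, and 6.48, 2.99 and 4.48 in U2mo. The 5 animals with the highest CXCL10 of the 40 were T120 fetuses 2 and 3, T100 fetus 4, U2mo lamb 1 and T135 fetus 3, all at or above 12.06, and IFNG was well above background in these 5 and in 3 of the other 35. Those 3 were T135 fetus 1 and U120 fetuses 2 and 3, which had CXCL10 at 9.21, 8.75 and 8.49. This coincidence was noticed in the values and was not tested. In T120 against U120, IFNG probe P039611 was higher by 1.32 ± 1.41 (SE; adjusted p over 0.05 in limma).

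Probe P039612 for IFNG was well above background in 39 animals and had another course. It had a mean of 7.11 in T70 and read 5.57, 6.99 and 6.56 in T120. Ubirth had it at 7.39, 7.49 and 7.50, the highest group, where CXCL10 was lowest. It rose from U135 to Ubirth by 1.30 ± 0.35 (adjusted p = 0.00347 in limma) and then changed by -1.25 ± 0.35 to U1mo (adjusted p = 0.0113). These groups lay on different slides, so age and slide cannot be told apart in these steps. Both IFNG probes are given because they disagree, and which of them follows the transcript was not tested.

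The companions on the pathway were taken from 7 lists of signalling, presentation and effector genes, of which 6 had probes on the array, 64 tested in all. No probe named IFNGR1, IFNGR2, JAK1, JAK2, SOCS1, SOCS3, TAP1, PSMB9, CXCL9 or CXCL11 was found by the symbols used here. In the RefSeq annotation of the assembly ARS-UI_Ramb_v3.0, CXCL10 lies between CXCL9 and CXCL11, and TAP1 and PSMB9 follow PSMB8.

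At 120 d none of the 64 pathway probes was called in limma at an adjusted p under 0.05, while 26 of them, or 40.6%, had an unadjusted p under 0.05 with a 2-fold difference, against 3.85% of all probes. Of the 26, 24 were higher in Texel. The 26 were 11 of 19 probes for MHC class I and its partners, 8 of 12 for class II presentation and 7 of 10 for other effectors. Of the 11, 9 were probes of MHC class I and 2 of B2M, and several other genes gave 2 probes each. The 26 are thus fewer genes than probes and not independent. The lists were chosen with earlier results of these data known. The median difference was 1.49 for the class I list, 2.19 for the class II list and 1.63 for the 9 probes of the type I interferon list, none of which passed the unadjusted rule. That list holds 2 probes each for the receptor subunits IFNAR1 (-0.29 and -0.21) and IFNAR2 (0.42 and 0.56). Its probes for MX1, MX2, ISG15 and RTP4 were higher in Texel by 1.63 to 2.42. Under the methods' t-test, which estimates the spread of each probe by itself, 3 of the 64 had an unadjusted p under 0.05 with a 2-fold difference. Leaving out T120 fetus 1 raised the limma count to 37, and leaving out T120 fetus 2, T120 fetus 3 or U120 fetus 3 lowered it to 13, 15 and 15.

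Within slide 4, 19 of the 64 pathway probes, or 29.7%, were called at an adjusted p under 0.05 with a 2-fold difference, against 1.06% of all probes; 17 were higher in the 2 Texel fetuses and 2 were lower. This fit rests on 2 fetuses against 3. Class II presentation gave 7 of the calls. OVAR-DRA, the alpha chain of the DR molecule, was higher by 3.98 ± 0.43 (SE; adjusted p = 0.0404), and its 5 values were 14.10 and 15.45 in T120 and 10.57, 10.98 and 10.84 in U120. The 3 OVAR-DRB1 probes were higher by 3.29 to 4.08. CTSS, the protease that trims the class II invariant chain, was higher by 2.10 ± 0.21 (adjusted p = 0.0369).

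MHC class I gave 6 more calls, from 6 of its 15 probes, with differences over all 15 from 1.32 to 3.88. Over all 6 fetuses these 15 ran from 1.00 to 3.48, with none called. B2M, the light chain that every class I molecule needs, was not called, at 1.42 and 1.63 on its pair of probes. Its values on probe P039591 were 17.37 and 17.40 in T120 fetuses 2 and 3 and 16.13, 15.67 and 15.48 in U120. T120 fetus 1 stood at 16.09, inside the U120 range. MHC loci vary in sequence between animals and each probe was made to 1 sequence, so level and match cannot be told apart for these loci.

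The other effectors moved in both directions. SLC11A1, a metal transporter of the phagosome, was higher by 4.06 ± 0.25 and 4.36 ± 0.24 on its pair of probes (adjusted p = 0.0177 for each in limma). CYBB, a subunit of the phagocyte oxidase, was higher by 2.49 and 2.28. NOS2, the inducible nitric oxide synthase, was lower, with differences of -2.17 ± 0.21 and -2.25 ± 0.23 (adjusted p = 0.035 and 0.0397), and it read 8.29 and 8.16 in T120 fetuses 2 and 3 against 10.16, 10.39 and 10.62 in U120 on probe P041326. T120 fetus 1 was between the groups, at 9.75.

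**Figure D3:**
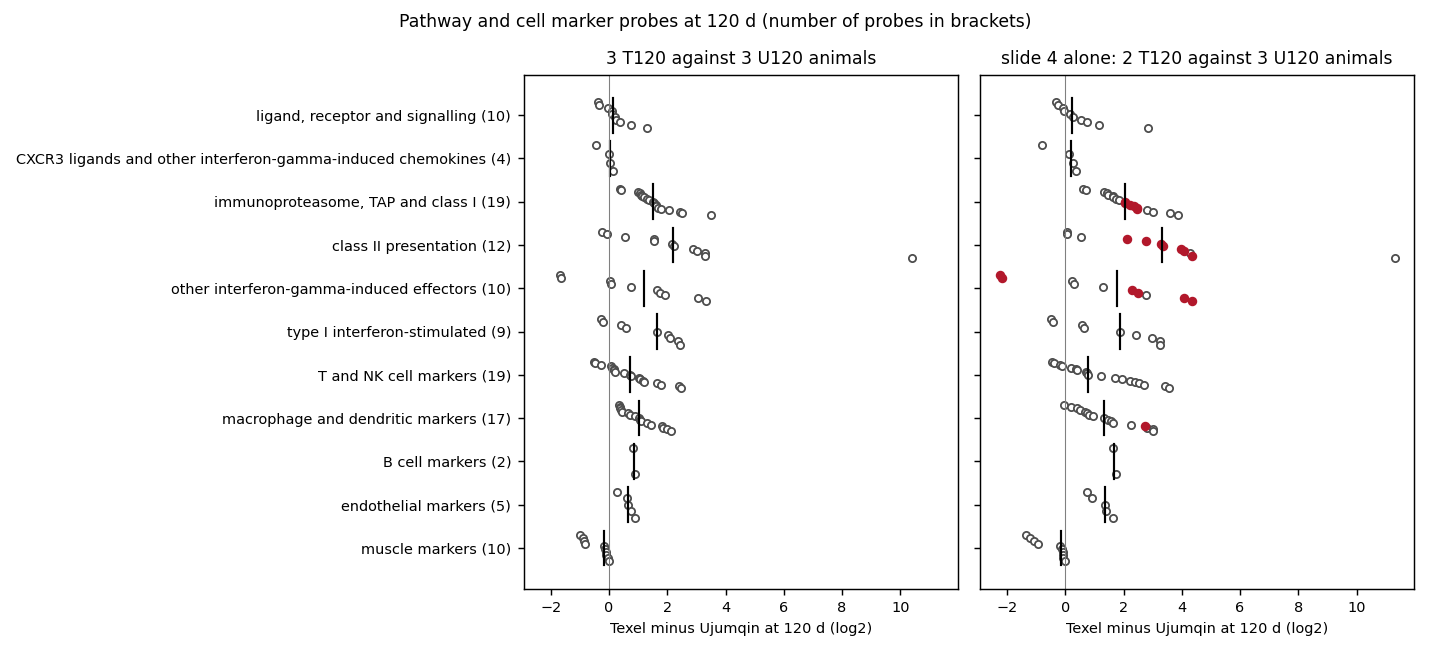
Texel minus Ujumqin at 120 d (log2 difference) for each pathway and cell marker probe by list, over 3 against 3 fetuses (left) and within slide 4 (right); black bars are list medians and filled points are called at an adjusted p under 0.05 with a 2-fold difference. No point of the pathway lists is filled on the left, and 19 are filled on the right, in the class I, class II and effector lists.

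The type I interferon-stimulated genes followed a different order of animals. ISG15 read 12.36, 15.16 and 11.88 in T120 and 14.01, 9.80 and 9.49 in U120. MX2 read 9.97, 14.46 and 10.53 in T120 and 11.59, 7.99 and 8.13 in U120. Thus T120 fetus 2 was the highest on both, and U120 fetus 1, the highest U120 fetus on both GBP2 probes and on CXCL10, came above T120 fetus 3 on ISG15 and MX2. At 135 d, 10 of the 64 pathway probes passed the unadjusted rule, against 2.09% of all probes, and 5 of these were type I interferon-stimulated, among them MX2 at 1.58 ± 0.24 and ISG15 at 2.09 ± 0.41, while IFNG probe P039611 was another, at 2.59 ± 1.06; none was called after adjustment. At 70, 85 and 100 d, 0, 9 and 2 pathway probes passed the unadjusted rule, against 3.17%, 2.01% and 1.41% of all probes.

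Some markers of other cell types moved with the members and others did not, and their part in the result was not tested. Summed over 10 genes, the macrophage and dendritic markers stood at 11.80, 13.28 and 13.23 in T120 and between 11.48 and 11.67 in U120, on the log2 scale of the summed intensity. They reached 12.67 in T100 fetus 4, against 11.69 to 12.02 in the other T100 fetuses, and 12.66 in T135 fetus 3, against 11.29 and 11.54. Their sum was 11.83 to 12.31 in T70 and 11.89 to 12.13 in U70, where IRF1 and PSMB8 were low. In U135 the sum of these markers was 11.26 to 11.53. Of their 17 probes, 5 passed the unadjusted rule at 120 d and 1, for CD86, was called within slide 4. The 9 T and NK cell genes summed to 10.01, 10.59 and 12.75 in T120 and to between 10.14 and 10.54 in U120. In T70 the same genes summed to between 10.58 and 10.77. In T120 fetus 2, which had the highest CXCL10 and IRF1 of all 40 animals, the sum of the T and NK genes was thus just above the U120 range, while in fetus 3 it was the highest of all. Of the defining T cell genes, CD3E and CD3D were well above background in all 40 animals and CD4 in 5 or fewer, and 1 of the 19 T and NK cell probes passed the unadjusted rule at 120 d. Over these 19 probes the difference at 120 d ran from -0.52 to 2.46, with a median of 0.73. CD247 and LCK were lower in Texel, and the other T and NK genes were higher. The single B cell gene, CR2, ranged from 5.19 to 8.82 in T120 and from 5.87 to 6.01 in U120. The 3 endothelial genes summed to 5.51, 7.04 and 7.93 in T120 and to between 5.69 and 6.26 in U120, and their median difference within slide 4 was 1.37, beside 1.34 for the macrophage and dendritic probes. The endothelial probes were dim: FLT1 probe P026321 and the SELE probe were well above background in 6 of the 40 animals each, and the others in 29 to 39. Of the 10 muscle probes, whose median difference was -0.16 over all 6 fetuses, the pair for MYOD1, an early myogenic factor, had differences of -0.89 and -0.84, and of the pair for MYF5, another, both were lower in Texel and 1 passed the unadjusted rule.

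**Figure D4:**
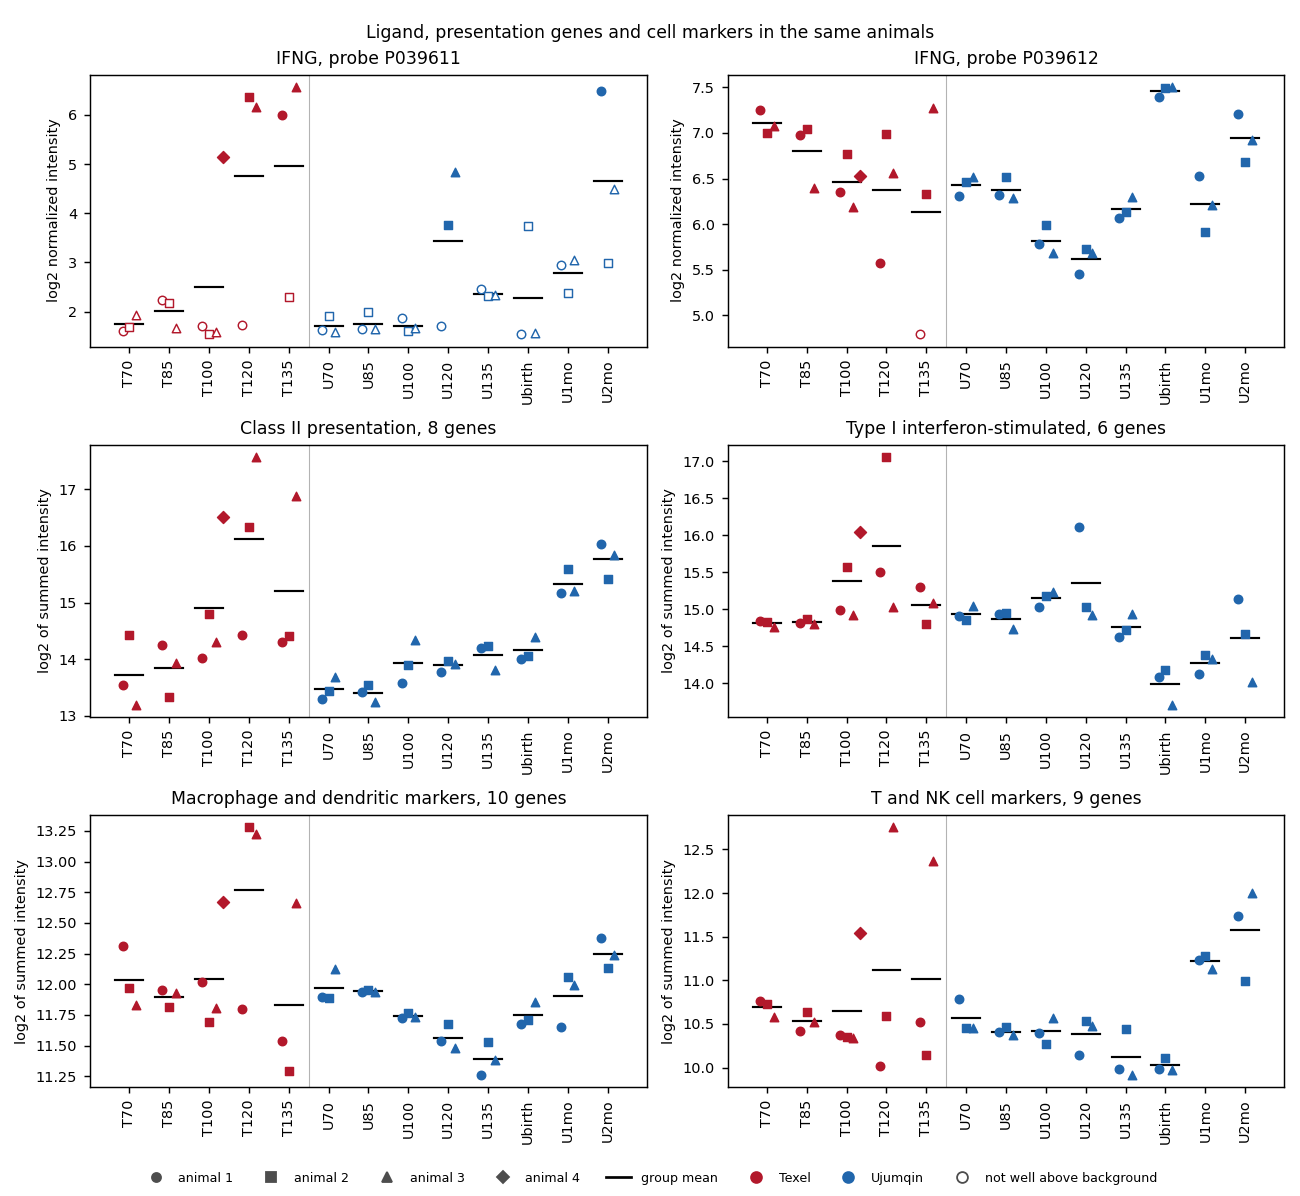
Level of the 2 IFNG probes (log2 normalized intensity; open symbols are not well above background) and log2 of the summed intensity of 4 gene lists in each of the 40 animals, with group means as black bars. T120 animals 2 and 3, T100 animal 4 and T135 animal 3 are high for class II presentation and for macrophage and dendritic markers, whereas T120 animal 2 is near the Ujumqin fetuses for T and NK cell markers.

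After birth the members did not run together. On GBP2 probe P066386 the U135 mean of 11.33 was followed by 8.21 in Ubirth, where the lambs read 12.01, 7.16 and 5.47, so 1 lamb was above all 3 U135 fetuses and the other two far below. U1mo lambs read 10.90, 10.48 and 12.76. The CXCL10 mean went from 6.18 in Ubirth to 8.91 in U1mo with no overlap. From U1mo to U2mo the 5 probes other than GBP4 had a higher mean, by 0.39 to 1.07 on the log2 scale. Each step from U135 to U2mo was also a change of slide. For members and lists alike, the parts of age and slide cannot be told apart there.

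For the pathway lists, 48 of 64 probes passed the F test of stage in limma in Texel fetuses, against 52% of all probes, and 53 passed it over the 8 Ujumqin groups, against 79.8%. Of the 6 member probes, 6 passed it in Texel and 5 in Ujumqin. Most stages of these tests lay on different slides, so the parts of stage and of slide cannot be told apart there. From U135 to Ubirth 6 of the 64 were called, against 19.7% of all probes, a smaller share than over the array. Those that fell were 5, namely both called IL18 probes and those for IRF3, CYBB and IFNAR2, and IFNG probe P039612 rose. With 75th-percentile scaling or normexp the 6 became 1. Of the 6 member probes 1 was called from U135 to Ubirth, GBP2 probe P066386, against the same 19.7% of all probes.

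From Ubirth to U1mo 8 of the 64 pathway probes and 1 of the 6 member probes, GBP2 probe P066386, were called, against 7.99% of all probes. Of the 12 class II presentation probes 5 rose and the other 7 did not pass. OVAR-DRA rose by 2.83 ± 0.85 (adjusted p = 0.0183 in limma), and OVAR-DRB1 by 3.03 ± 0.77 (adjusted p = 0.00593) on 1 of its called probes; OVAR-DQA1 and CTSS were called too. NOS2 fell on both of its probes by 1.54 and 1.21. T and NK cell genes summed to between 9.97 and 10.11 in Ubirth and between 11.13 and 11.28 in U1mo, and their part in this step was not tested. From U1mo to U2mo 3 of the 64 pathway probes and none of the 6 member probes were called, against 3.24% of all probes. ICAM1, an adhesion molecule, rose by 1.54 ± 0.36 (adjusted p = 0.00956) and NOS2 fell by 1.74 and 1.81, and with normexp none of the 64 was called.

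By the correlation of its 13 group means with the mean of the 5 scaled member genes, the closest probe with a gene name was FCGR1A, the high-affinity IgG receptor and a member of the effector list, at 0.96. Lysozyme (LYZ) followed at 0.93 and 0.92 on a pair of probes, with MYD88, an adaptor of Toll-like receptors, at 0.93 and RTP4, an interferon-stimulated gene, at 0.92. MX2, of the same type I interferon list as RTP4, was at 0.91. FCGR1A had means of 8.24 in T120, 6.31 in U120 and 7.27 in U2mo. MYD88 changed less, with means of 5.09, 4.76 and 4.86 in the same groups. Among the members, CXCL10 was the least like this mean, at 0.51, and IRF1 the most, at 0.94. The correlations are over 13 groups from the same arrays and each member is part of the mean it was set against. GBP4, measured in only 10 animals, counted in that mean as much as each other gene.

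**Figure D5:**
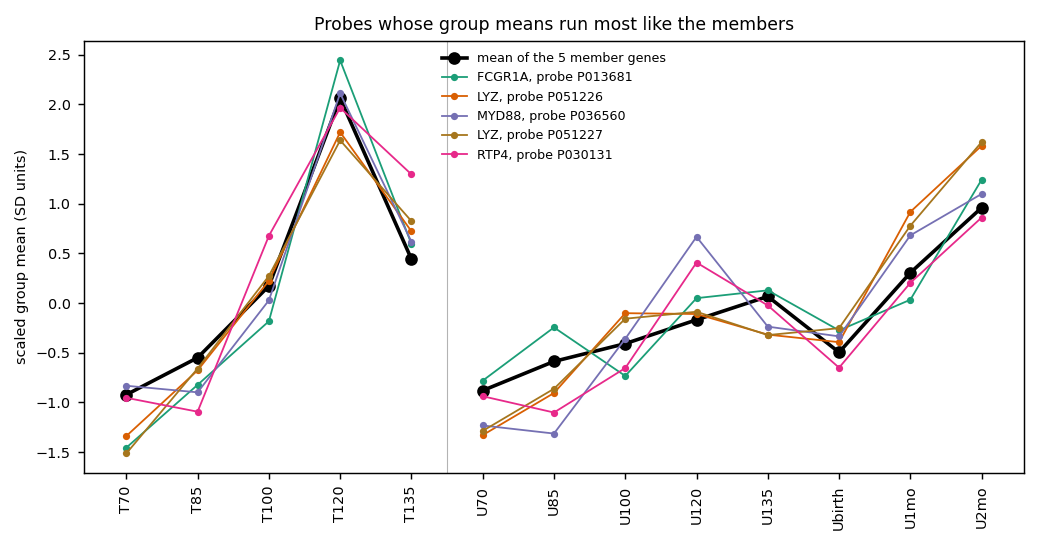
Group means of the 5 closest named probes and the mean of the 5 member genes, each scaled to mean 0 and SD 1 before averaging, over 13 groups (Texel left, Ujumqin right). All peak in T120, and within Ujumqin the member mean is highest in U2mo.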

How the data were processed

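Longissimus dorsi RNA of 40 sheep was hybridized to 1-color Agilent arrays, 1 array per animal. Per the file headers, the authors obtained the processed signal intensity of each spot with Agilent Feature Extraction 10.5, which subtracts background. The deposited table holds log2 values that the authors quantile-normalized; each of its 40 columns correlated best with its own array (r at least 0.99997), and it served as an alternative.

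Outlier-flagged spots were dropped before the spots of each probe were averaged. The 40 arrays were quantile-normalized together, given a floor of 1 and put on the log2 scale. Tests covered the 14475 of 15008 probes that rose well above background on 1 or more arrays. Groups, replicate numbers and sex came from the sample labels, which give no dam; whether animals of a group were unrelated is not stated, so p-values cover the spread between these animals only. Breeds were compared at each stage on that stage's arrays. Stage, sex and breed-by-stage comparisons came from 1 fit over 13 groups. All fits used limma 3.58.1 in R 4.3.3 with Benjamini-Hochberg adjustment over all probes tested; a call needs an adjusted p under 0.05 with 2-fold or more (F tests, the adjusted p alone). The code was tested on simulated data.

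Gene symbols were available for 1613 probes, 662 of them matched by accession to RefSeq. MHC class I probes were grouped by their description. Members and gene lists were chosen with earlier results of these data known. Beyond the members, the rule named up to 4 called probes per list and comparison by absolute difference, a fixed set of signalling and presentation genes where on the array, and the 5 named probes whose 13 group means correlated best with the scaled mean of the members; the other genes in the text (ISG15, MX2, CR2 and those described animal by animal) were chosen after their values were seen. Alternatives covered scaling, background correction, the deposited table, filters, floor, test, slide, sex, replicate block and leaving out each array. The number of arrays limits the precision. Figures were drawn with matplotlib 3.10.9. One item is not reported here.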

Additional observations from a re-analysis of the deposited data

Results flagged for a closer look

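T100 was the 1 group of 4 animals, and smaller groups were not checked for outlying animals; in T100, CXCL10 was the member with an animal far from its group. T100 fetus 4 read 13.54 against 9.65 to 9.90 in the other 3, and the gap to the nearest fetus was 0.935 of the range of the group, above the 95% critical value of the Dixon test for 4 samples. The other 5 member probes had values from 0.212 to 0.677 in T100. Chance flags about 1 in 20 such groups.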

How the results depend on the processing

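The T120 mean stayed the highest of the group means for all 6 member probes under each alternative for scaling, background, filter and floor, and for 5 or 6 when single arrays were left out. Pathway counts changed more. At 120 d, with 0 called in the breed comparison, the count was 10 in 1 fit over 13 groups, 5 with a sex term, 19 within slide 4 and 26 at the unadjusted threshold, with 3 by the methods' t-test unadjusted; after Benjamini-Hochberg adjustment that t-test called none of the pathway probes at any stage. Single omissions gave 0 to 19, the 19 without T120 fetus 1. The unadjusted threshold gave 9, 2 and 10 at 85, 100 and 135 d in limma and 3, 1 and 5 by the methods' t-test, and 5 for breed by stage. Breed by stage gave 1 with normexp and 0 to 3 over omissions (3 without T120 fetus 1); 100 d gave 0 to 1 (1 without U100 fetus 1) and 135 d 0 to 1 (1 without T135 fetus 2).

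From U135 to Ubirth the 6 calls became 1 with 75th-percentile scaling and 1 with normexp, and 2 to 7 over omissions (2 without Ubirth lamb 3 or U135 fetus 3, 3 without U135 fetus 2). From Ubirth to U1mo the 8 became 3 to 8 (3 without U1mo lamb 2, 5 without U1mo lamb 3 or Ubirth lamb 1). From U1mo to U2mo the 3 became 0 with normexp, 5 unadjusted and 1 to 3 over omissions (1 without U2mo lamb 3). The cause was not tested. Same-numbered Texel and Ujumqin fetuses did not deviate together (correlations from -0.31 to 0.10), so the numbers are names; with a replicate block the breed comparisons had 0 calls at each stage, the postnatal steps 6, 10 and 3, and stage 55 in Ujumqin and 51 in Texel. With the slide as a random block the breed comparisons again had 0 calls and the postnatal steps 4, 8 and 3. Dim spots limit GBP4 most.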
